A study of Mus musculus with 18 samples.

Results

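A set of 38 genes of red cell formation and heme synthesis was followed in adipocytes of 2 fat depots at 3 ages. The genes were chosen by name for their known roles, with earlier results of these data known. A gene was taken where a probe set of the array table named it alone, and 37 of the 38 were found among the 19938 genes so named. The remaining gene, Ahsp, which encodes a chaperone of alpha globin, was not analysed here. Each of the 37 genes had a single such probe set, so no choice between probe sets was needed. The arrays held RNA of bone marrow adipocytes and of epididymal white adipocytes (called peripheral in the sample labels) from male C57BL/6J mice of 6, 14 and 18 months, all fed standard chow, and no further treatment or genetic change was named. Bone marrow adipocytes were the floating layer of marrow flushed from femurs and tibias, taken after a red cell lysis step, and epididymal adipocytes were floated after collagenase digestion. No sort by a surface marker was described for either preparation. Each of the 6 groups had 3 arrays, each of a separate RNA pool, with 6 to 10 animals behind the pools of a group and both depots taken from the same mice. How the animals were divided among the pools was not given, so p-values measure the spread between pools.

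Red cells arise in the marrow from erythroblasts, which lose their nucleus after building up hemoglobin, a membrane skeleton and blood group proteins. Their gene program is driven by erythropoietin signaling through its receptor and by a small group of transcription factors. Heme is made from glycine and succinyl-CoA in a chain of enzymes that begins and ends in the mitochondrion, where iron is inserted by ferrochelatase, and its opening step has a housekeeping isoenzyme (Alas1) and an erythroid isoenzyme (Alas2).

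Levels are the deposited log2 values, which ran between 1.90 and 14.64 in the 35556 probe sets, with array medians of 5.33 to 5.65. The preparations differed widely in cell type markers. Of 18 genes of mature adipocytes, 17 were lower in bone marrow than in epididymal adipocytes over the ages (median difference -4.64), and their median level was 7.26 to 7.70 on the bone marrow arrays and 12.20 to 12.71 on the epididymal arrays. Adipoq, the adiponectin gene, averaged 7.38 in bone marrow and 12.54 in epididymal adipocytes. All 17 neutrophil genes (median difference 5.71), all 27 proliferation genes (3.40), 11 of 13 megakaryocyte genes (3.05), 14 of 17 B lineage genes (2.57) and 11 of 17 macrophage genes (1.46) were higher in bone marrow. Of all tested probe sets, 10.2% were higher in bone marrow and 11.6% lower, by the calls defined below. In bulk RNA of this kind, fewer cells of a type and less RNA per cell cannot be told apart. The part of other cell types in the results on the erythroid genes was not tested.

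A pair of arrays stood apart from the others of their groups. On replicate 1 of the 6-month epididymal group, 28 of the 37 genes lay above both other arrays, as did 37.7% of all tested probe sets. Of the 37, 10 exceeded the mean of the other arrays by more than 1 log2 unit, which 0.632% of all tested probe sets did. Rhag read 6.73 on that array, against 3.72 and 3.80 on the others, and Slc4a1 read 9.10, against 6.08 and 6.40. The same array had 14 of 17 neutrophil genes more than 1 unit above the others (median excess 3.43) and 8 of 27 proliferation genes (0.72), but no mature adipocyte gene (-0.045). Replicate 1 of the 6-month bone marrow group spread in both directions around the others. It was low for Bpgm (8.99, against 10.55 and 10.39) and Tfrc (10.29, against 11.19 and 11.75), and high for Blvrb (11.54, against 10.14 and 10.41). Results that rest on these arrays are given with and without them.

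Promoter windows of 250 bases before a start site were read from RefSeq (build GRCm38.p6) to show what the genes share beyond their levels. They held 37 windows for 29 of the 37 genes. A GATA motif (the letters AGATAA or AGATAG, or the letters TGATAA or else TGATAG) stood on either strand in 18 of the 37 windows (48.6%), against 26.5% of all 32851 windows. A CACCC-type motif (CCNCNCCC) stood in 22 (59.5%), against 45.9%, and an NF-E2 motif (TGAGTCA) in 2 (5.41%), against 4.46%. These are matches of letters and not sites of binding, and the shares were not tested. The CACCC-type pattern also takes in stretches without the letters CACCC, such as CCCCTCCC in the Gata1 window. The windows printed are those of both first-step isoenzymes, which differed in opposite directions between the depots, and of leading regulators and membrane genes, with GATA and CACCC-type motifs in capitals, where matches may overlap. They lie at chrX:150547167-150547416 on the plus strand for Alas2, chr9:106247955-106248204 on the minus strand for Alas1 (the farther upstream of its windows), and chr17:40810899-40811148 on the plus strand for Rhag. The others lie at chr2:121036878-121037127 on the minus strand for Epb42, chr8:84901732-84901981 on the plus strand for Klf1, chrX:7967911-7968160 on the minus strand for Gata1, and chr9:21963577-21963826 on the minus strand for Epor. Each is written in the direction of its gene.
Alas2: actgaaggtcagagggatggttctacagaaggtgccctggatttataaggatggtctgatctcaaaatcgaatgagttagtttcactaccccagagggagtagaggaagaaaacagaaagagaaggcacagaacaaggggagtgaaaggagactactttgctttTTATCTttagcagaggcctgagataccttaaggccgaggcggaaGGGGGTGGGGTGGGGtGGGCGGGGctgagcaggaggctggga
Alas1: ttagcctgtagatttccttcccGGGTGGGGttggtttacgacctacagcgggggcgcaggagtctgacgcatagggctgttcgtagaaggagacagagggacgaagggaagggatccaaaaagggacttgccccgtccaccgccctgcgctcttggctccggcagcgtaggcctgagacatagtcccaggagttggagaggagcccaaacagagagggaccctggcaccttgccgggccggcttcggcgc
Rhag: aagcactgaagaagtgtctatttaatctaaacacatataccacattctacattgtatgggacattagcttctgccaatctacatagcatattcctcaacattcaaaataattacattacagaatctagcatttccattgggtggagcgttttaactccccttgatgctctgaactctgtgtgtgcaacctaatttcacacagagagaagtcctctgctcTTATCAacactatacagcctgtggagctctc
Epb42: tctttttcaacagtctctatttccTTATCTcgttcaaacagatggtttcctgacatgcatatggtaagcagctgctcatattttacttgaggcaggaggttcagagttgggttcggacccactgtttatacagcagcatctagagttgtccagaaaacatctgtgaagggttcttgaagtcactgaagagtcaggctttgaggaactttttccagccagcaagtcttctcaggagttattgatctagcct
Klf1: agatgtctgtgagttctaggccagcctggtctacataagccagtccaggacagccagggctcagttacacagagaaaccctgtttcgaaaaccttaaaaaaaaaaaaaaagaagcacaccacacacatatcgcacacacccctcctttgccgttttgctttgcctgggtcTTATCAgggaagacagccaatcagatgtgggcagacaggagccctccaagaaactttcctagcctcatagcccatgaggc
Gata1: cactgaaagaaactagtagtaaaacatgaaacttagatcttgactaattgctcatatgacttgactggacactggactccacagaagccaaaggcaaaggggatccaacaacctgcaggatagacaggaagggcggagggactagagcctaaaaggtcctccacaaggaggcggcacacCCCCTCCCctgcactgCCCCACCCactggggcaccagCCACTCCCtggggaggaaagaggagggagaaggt
Epor: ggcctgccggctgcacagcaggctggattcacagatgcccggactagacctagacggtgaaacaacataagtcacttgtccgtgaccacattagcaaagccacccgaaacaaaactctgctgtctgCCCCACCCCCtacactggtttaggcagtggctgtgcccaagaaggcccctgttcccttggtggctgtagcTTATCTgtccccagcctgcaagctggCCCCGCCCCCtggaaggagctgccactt
The Alas2 window held 1 GATA motif and 4 CACCC-type motifs, and the Alas1 window 1 CACCC-type motif with no GATA motif. The Epor window held 1 GATA and 4 CACCC-type motifs, and the Gata1 window 3 CACCC-type motifs. The windows of Rhag, Epb42 and Klf1 held 1 GATA motif each.

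The comparison between depots asked which of these genes differed between bone marrow and epididymal adipocytes. Over the 3 ages, 35 of the 37 genes were higher in bone marrow adipocytes, Alas1 was lower, and Alad did not pass. A call needed an adjusted p under 0.05 in limma's moderated test over all 23410 probe sets that name a gene, and a difference of at least 2-fold, and 10.2% of those probe sets were called higher and 11.6% lower. For 36 genes all 9 bone marrow arrays lay above all 9 epididymal arrays, as did 12.4% of the probe sets, and for Alas1 all lay below (15.3%). The median difference of the 37 genes was 3.37 on the log2 scale, against -0.02 for all tested probe sets. With arrays set equal on the ribosomal protein genes, which shifted the all-probe-set median by -0.90, 30 genes were still higher and Alas1 lower, and Uros, Urod, Ppox, Slc25a38 and Trim58 were no longer called.

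**Figure D1:**
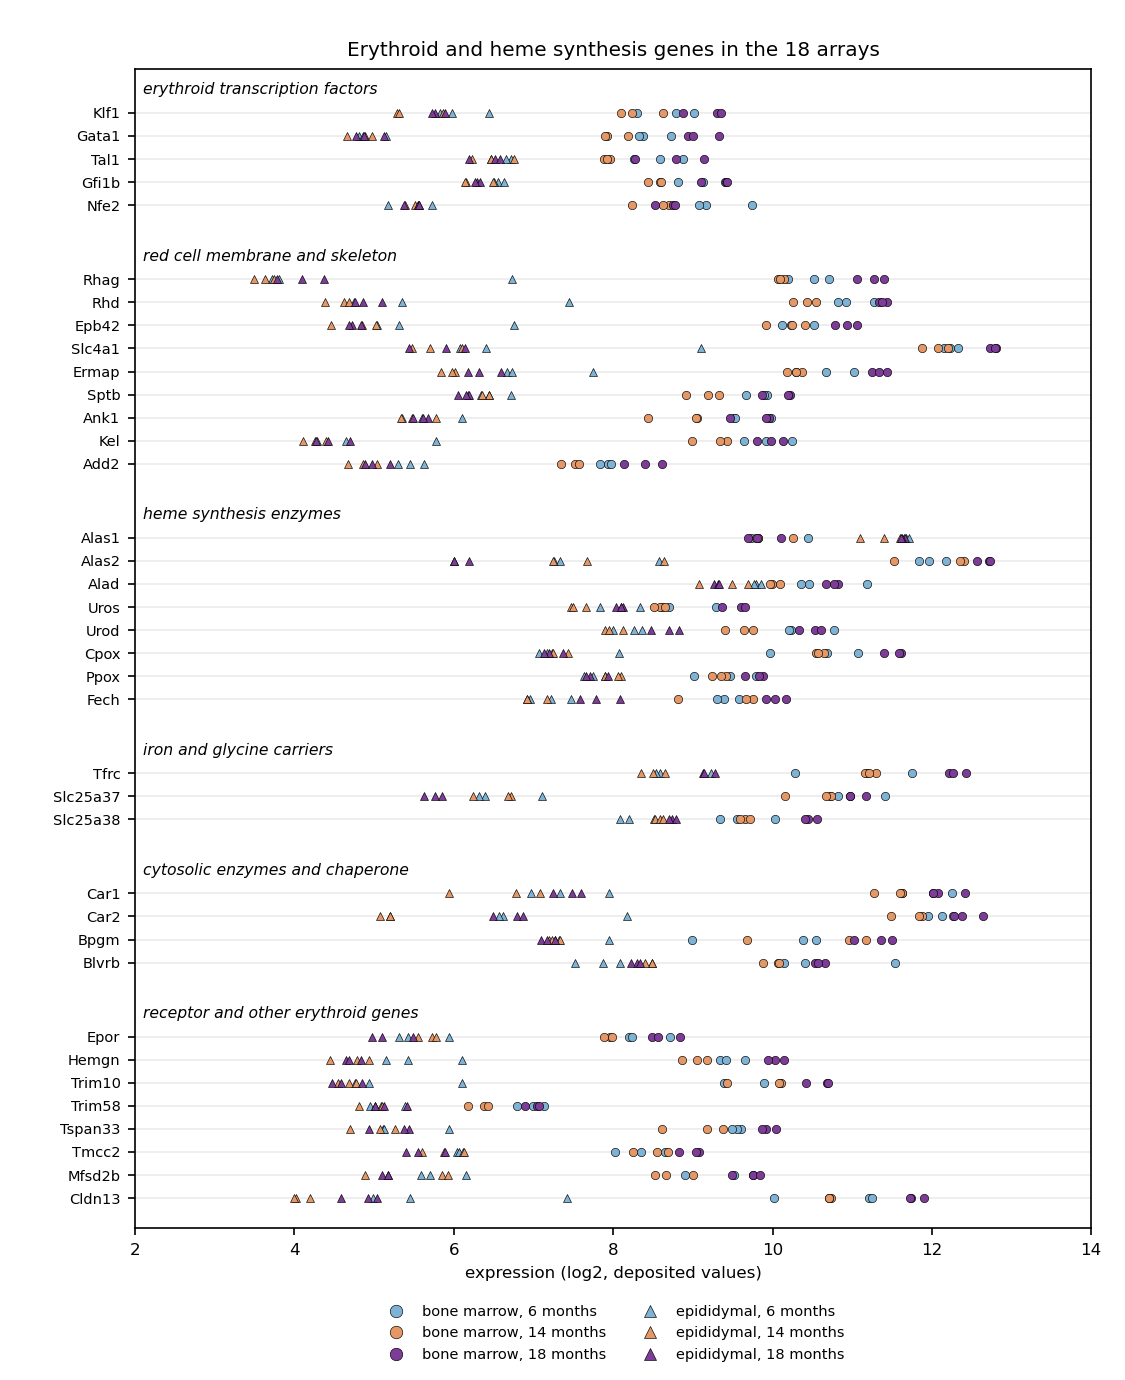
Deposited log2 expression (horizontal axis) of the 37 genes on each of the 18 arrays, grouped by role; circles are bone marrow arrays, triangles epididymal arrays, and colors the ages. The circles lie to the right of the triangles for every gene except Alas1, and the lone light triangles far to the right of their group, as for Rhag and Slc4a1, are replicate 1 of the 6-month epididymal group.

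The transcription factors of the erythroid program were all higher in bone marrow. Gata1, the master regulator of red cell genes, read 8.37, 8.32 and 8.72 at 6 months, 8.19, 7.92 and 7.90 at 14 months and 8.94, 9.33 and 8.997 at 18 months in bone marrow adipocytes. In epididymal adipocytes it read 5.14, 4.82 and 4.86 at 6 months, 4.88, 4.66 and 4.97 at 14 months and 4.77, 5.12 and 4.88 at 18 months. No array of either depot came within 2 units of the other depot. The difference was 3.62 ± 0.09 (SE; 12.3-fold, adjusted p = 1.57e-17, limma). Nfe2, the hematopoietic subunit of the NF-E2 factor, had a median of 8.75 (8.24 to 9.74) in bone marrow and 5.55 (5.18 to 5.73) in epididymal adipocytes, a difference of 3.36 ± 0.10. Klf1, the erythroid factor of CACCC elements, differed by 2.94 ± 0.12 (7.69-fold), and Gfi1b, a repressor needed for erythroid and megakaryocytic cells, by 2.62 ± 0.08. Tal1, a partner of GATA factors, differed least, by 1.90 ± 0.11 (adjusted p = 1.10e-11).

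All 9 genes of the red cell membrane and its skeleton were higher in bone marrow, and their median difference of 5.18 stood above that of every other role group. Rhag, the Rh-associated glycoprotein, read 10.20, 10.52 and 10.71 at 6 months, 10.15, 10.06 and 10.10 at 14 months and 11.39, 11.27 and 11.06 at 18 months in bone marrow adipocytes. In epididymal adipocytes it read 6.73, 3.72 and 3.80 at 6 months, 3.49, 3.64 and 3.74 at 14 months and 4.10, 4.37 and 3.78 at 18 months. Its difference, 6.45 ± 0.28 (87.7-fold, adjusted p = 1.18e-13), was the largest of the 37, with 6.73 the only epididymal value above 4.37. Slc4a1, the anion exchanger band 3, had a median of 12.23 (11.88 to 12.81) in bone marrow and 6.08 (5.44 to 9.10) in epididymal adipocytes and differed by 6.09 ± 0.28 (68.3-fold). Rhd, the Rh protein of red cells, differed by 5.83 ± 0.23 (56.7-fold), and Epb42, which ties band 3 to the skeleton, by 5.39 ± 0.17 (42.0-fold). Kel, the Kell endopeptidase (a blood group protein in humans), differed by 5.18 ± 0.15, and Ermap, an erythroblast membrane protein, by 4.31 ± 0.13. The skeletal genes differed by less. Ank1, the ankyrin that anchors band 3, differed by 3.83 ± 0.12, Sptb, the beta spectrin, by 3.37 ± 0.08, and Add2, the beta adducin at spectrin junctions, by 2.81 ± 0.08. For each of these 9 genes the lowest bone marrow array lay above the highest epididymal array, including replicate 1 of the 6-month epididymal group. The epididymal medians of Rhag (3.78), Rhd (4.77), Epb42 (4.85), Kel (4.40) and Add2 (5.03) lay below every array median (5.33 to 5.65), where folds are less certain. Those of Slc4a1, Ermap and Sptb lay above that range, and that of Ank1 (5.60) within it.

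The heme synthesis enzymes did not differ alike. Of 8 enzymes, 6 were higher in bone marrow, Alas1 was lower, and Alad missed the fold limit. Alas2, the erythroid isoenzyme of the opening step, read 12.17, 11.84 and 11.96 at 6 months, 11.53, 12.41 and 12.35 at 14 months and 12.72, 12.57 and 12.73 at 18 months in bone marrow adipocytes. In epididymal adipocytes it read 8.58, 7.26 and 7.34 at 6 months, 7.24, 8.64 and 7.67 at 14 months and 6.19, 6.00 and 6.00 at 18 months. The depots never overlapped, and the difference was 5.04 ± 0.19 (32.9-fold, adjusted p = 1.11e-14). Alas1, the housekeeping isoenzyme, ran the other way. It read 9.81, 9.73 and 10.45 at 6 months, 10.26, 9.79 and 9.82 at 14 months and 9.69, 9.80 and 10.11 at 18 months in bone marrow adipocytes. In epididymal adipocytes it read 11.68, 11.71 and 11.66 at 6 months, 11.10, 11.40 and 11.59 at 14 months and 11.66, 11.63 and 11.62 at 18 months. All 9 bone marrow arrays were lower, by 1.62 ± 0.10 (3.07-fold, adjusted p = 3.56e-11), and the difference was of like size at each age (-1.68, -1.41 and -1.77 at 6, 14 and 18 months, each ± 0.18).

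Among the enzymes after the opening step, the difference was widest at Cpox, the mitochondrial coproporphyrinogen oxidase, at 3.57 ± 0.14 (11.9-fold). Its bone marrow arrays ran between 9.97 and 11.61 (median 10.68) and its epididymal arrays between 7.07 and 8.07 (median 7.23). Fech, the ferrochelatase that inserts iron, differed by 2.28 ± 0.12 (4.85-fold), Urod, the uroporphyrinogen decarboxylase, by 1.88 ± 0.09, and Ppox, the protoporphyrinogen oxidase, by 1.67 ± 0.09. Uros, the uroporphyrinogen III synthase, differed by 1.09 ± 0.09, which exceeded 2-fold over the ages but not at 6 months (0.77 ± 0.16, adjusted p = 0.000338). Alad, which joins 2 molecules of aminolevulinic acid, differed by 0.97 ± 0.10 (1.96-fold, adjusted p = 4.85e-08). Its 9 bone marrow arrays (9.97 to 11.18) lay above its 9 epididymal arrays (9.08 to 9.85), so that it failed the fold limit and not the test. With the ribosomal protein genes set equal, the difference of Uros was 0.19.

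**Figure D2:**
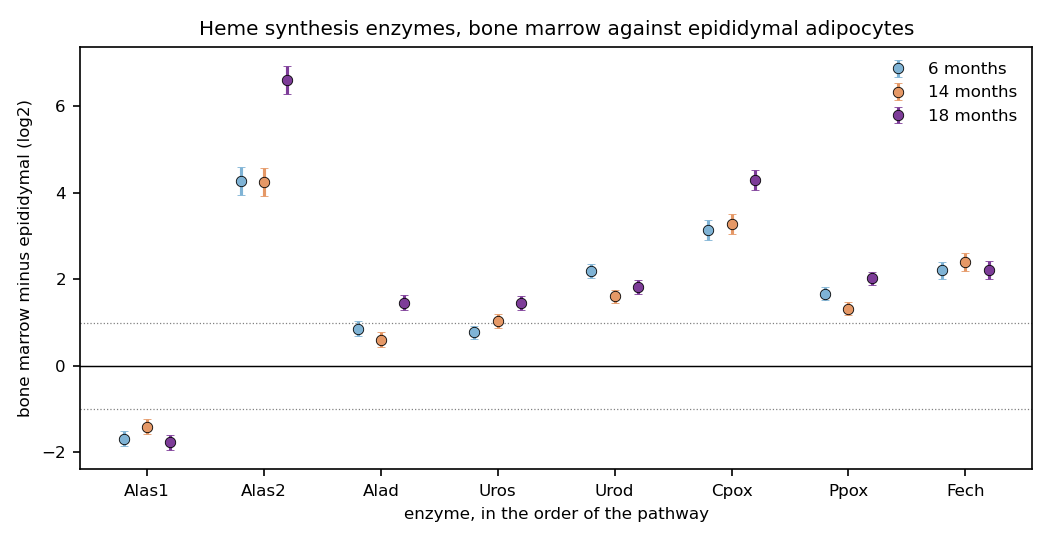
Difference in level between bone marrow and epididymal adipocytes (log2, vertical axis) for the 8 heme synthesis enzymes in pathway order, at each age; bars are the standard error of the fit and dotted lines mark 2-fold. Alas1 lies between -1.77 and -1.41, Alas2 lies above 4 and reaches 6.61 at 18 months, and Alad and Uros lie nearest to 0.

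The carriers that feed heme synthesis were higher in bone marrow. Slc25a37, or mitoferrin, which brings iron into mitochondria, had a median of 10.82 (10.16 to 11.41) in bone marrow and 6.31 (5.63 to 7.11) in epididymal adipocytes, a difference of 4.54 ± 0.12 (23.3-fold). Tfrc, the transferrin receptor for iron uptake, differed by 2.71 ± 0.14 (6.56-fold), and Slc25a38, the glycine carrier, by 1.39 ± 0.08 (2.62-fold). Among cytosolic enzymes of red cells, the carbonic anhydrases differed most. Car2 had a median of 12.12 (11.49 to 12.65) in bone marrow and 6.57 (5.07 to 8.17) in epididymal adipocytes and differed by 5.76 ± 0.16 (54.2-fold), and Car1 differed by 4.72 ± 0.15 (26.4-fold). Bpgm, which makes the bisphosphoglycerate that lowers oxygen affinity, differed by 3.31 ± 0.20, and Blvrb, a biliverdin and flavin reductase, by 2.24 ± 0.14. No bone marrow array of these 7 genes fell to the level of an epididymal array.

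The erythropoietin receptor and other erythroid genes were all higher too. Epor read 8.19, 8.24 and 8.71 at 6 months, 7.96, 7.89 and 7.98 at 14 months and 8.49, 8.84 and 8.57 at 18 months in bone marrow adipocytes. In epididymal adipocytes it read 5.94, 5.31 and 5.43 at 6 months, 5.73, 5.77 and 5.55 at 14 months and 5.49, 5.10 and 4.98 at 18 months. The depots lay apart at every age, by 2.84 ± 0.10 over the ages (7.17-fold, adjusted p = 5.17e-15). Cldn13, a claudin gene, had the second largest difference of the 37, 6.15 ± 0.24 (71.1-fold). Trim10, a ligase of terminal erythroid maturation, differed by 5.23 ± 0.16, Hemgn, an erythroid nuclear protein, by 4.51 ± 0.11, and Tspan33, a tetraspanin of erythroid progenitors, by 4.30 ± 0.13. Mfsd2b, the sphingosine-1-phosphate exporter of red cells, differed by 3.77 ± 0.14, Tmcc2 by 2.76 ± 0.10 and Trim58, a ligase that acts as erythroblasts lose their nucleus, by 1.67 ± 0.08. At single ages the calls were nearly the same in number, with 34 genes higher at 6 months (11.4% of probe sets), 35 at 14 months (9.91%) and 36 at 18 months (10.9%). Alas1 was lower at each of them (11.8%, 11.5% and 12.9%).

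With age, most of the genes in bone marrow adipocytes lay below their own mean at 14 months and above it at 18 months. Counted against each gene's own mean over the 9 bone marrow arrays, 17, 9 and 26 of the 37 genes were above it on the 6-month arrays, 1, 5 and 3 on the 14-month arrays, and 34, 35 and 36 on the 18-month arrays. The median deviation was -0.58, -0.36 and -0.34 at 14 months and 0.42, 0.47 and 0.38 at 18 months. The 14-month arrays thus lay below the mean and the 18-month arrays above it on each array, while the 6-month arrays were mixed. Deviations from a shared mean offset each other between ages, and genes on the same array are not replicates. The share of all probe sets was not counted here, and the tests between ages follow. Age calls needed an adjusted p under 0.05 with no fold limit, and both older ages were set against the same 6-month arrays.

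**Figure D3:**
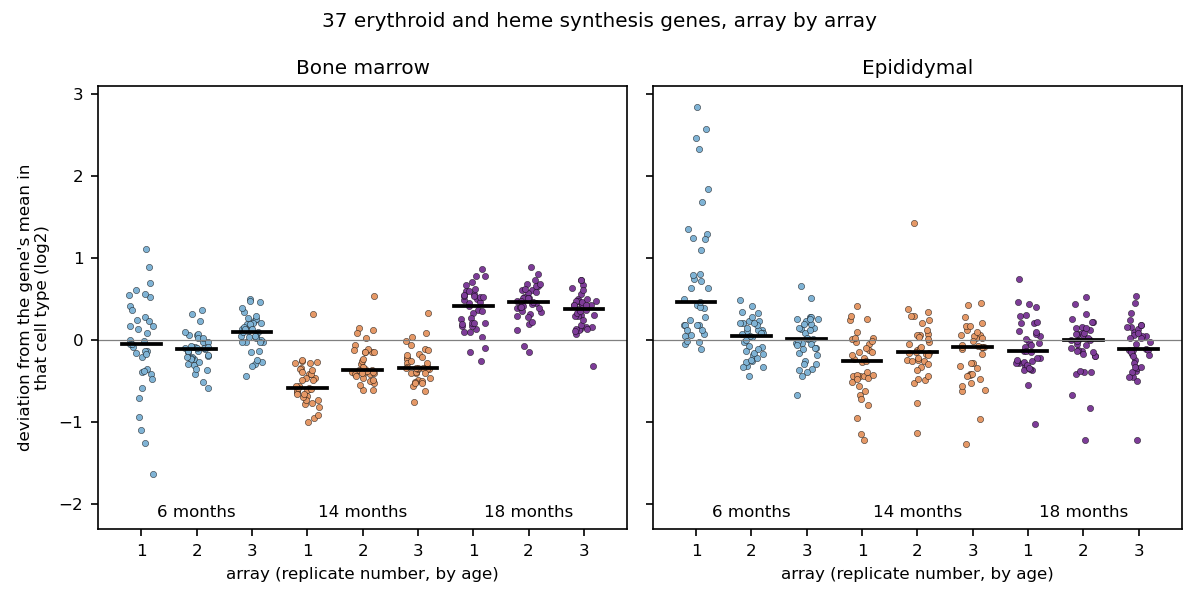
Deviation of each of the 37 genes from its own mean in that depot (log2, vertical axis) on each array, by age and replicate number; black bars are medians over the genes. The 14-month bone marrow medians lie between -0.58 and -0.34 and the 18-month medians between 0.38 and 0.47, while replicate 1 of the 6-month epididymal group holds the points above 2.

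Between 18 and 14 months the difference in bone marrow was widest. At 18 months 20 of the 37 genes were higher than at 14 months and none lower, where 4.75% of all probe sets were higher and 8.23% lower. For 34 genes the 3 arrays of 18 months lay above the 3 of 14 months, as 12.6% of probe sets did, and the median difference was 0.77, against -0.03 over all tested. The called genes came from every role group except the cytosolic enzymes, where 0 of 4 passed and 3 had an unadjusted p under 0.05. Gata1 differed by 1.09 ± 0.15 (adjusted p = 9.86e-05), Tfrc by 1.08 ± 0.25, Ermap by 1.06 ± 0.22 and Hemgn by 1.01 ± 0.19. Sptb was 9.87, 10.22 and 10.19 at 18 months, against 8.91, 9.33 and 9.19 at 14 months, a difference of 0.95 ± 0.14. Uros, Cpox, Urod, Alad and Fech differed by 0.96, 0.94, 0.89, 0.74 and 0.63, so that 5 of 8 heme enzymes passed. Alas2 (0.58 ± 0.33, adjusted p = 0.315) and Ppox (0.45 ± 0.15, adjusted p = 0.0609) did not pass although their arrays did not overlap, and Alas1 overlapped (-0.09 ± 0.18). In a fit of these 6 arrays alone 32 genes passed, where 6.31% of probe sets were higher and 10.1% lower. Without both 6-month arrays that stood apart 32 passed, where 7.15% were higher and 11.1% lower. Both settings thus called more probe sets at large than the main fit. Rhag (1.14), Rhd (0.97), Slc4a1 (0.72) and Epb42 (0.73) passed in the fit of 6 arrays but not in the main fit. The main fit takes 1 error per probe set from all 18 arrays.

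Between 14 and 6 months 8 genes fell in bone marrow and 0 rose, against 3.58% and 5.08% of probe sets, and the median difference was -0.43. They were Ank1 (-0.84 ± 0.21), Nfe2 (-0.81 ± 0.17), Urod (-0.80 ± 0.16), Sptb (-0.69 ± 0.14), Tal1 (-0.65 ± 0.19), Alad (-0.65 ± 0.17), Trim58 (-0.65 ± 0.14) and Gfi1b (-0.57 ± 0.14). Nfe2 read 8.24, 8.70 and 8.63 at 14 months, against 9.74, 9.17 and 9.08 at 6 months. For 18 genes the 14-month arrays lay below all 6-month arrays, where 10% of probe sets did. These calls were not firm. Leaving out single arrays gave 4 to 11 genes. None passed in a fit of the bone marrow arrays of these ages alone, where 0.982% of probe sets were higher and 0.175% lower. In the fit of all arrays 17 had an unadjusted p under 0.05. With array weights 3 passed, and 4 (Nfe2, Sptb, Urod and Trim58) passed without replicate 1 of the 6-month bone marrow group. Without both arrays that stood apart 12 genes were lower, 5 of them among these 8, where 4.75% of probe sets were higher and 3.52% lower.

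Between 18 and 6 months 8 genes rose in bone marrow and Nfe2 fell, against 3.37% and 5.13% of probe sets, with a median difference of 0.39. Bpgm (1.32 ± 0.35), Tfrc (1.23 ± 0.25), Cpox (0.96 ± 0.23), Slc25a38 (0.83 ± 0.14), Uros (0.68 ± 0.16), Tmcc2 (0.64 ± 0.17), Gata1 (0.62 ± 0.15) and Add2 (0.47 ± 0.14) rose. Tfrc was 12.21, 12.43 and 12.27 at 18 months, against 10.29, 11.19 and 11.75 at 6 months. Slc25a38 was 10.45, 10.40 and 10.56 at 18 months, against 9.55, 9.34 and 10.03 at 6 months. Without replicate 1 of the 6-month bone marrow group the rises of Gata1, Uros, Tfrc (0.83) and Slc25a38 (0.78) still passed, while those of Bpgm (0.82), Cpox (0.66), Add2 and Tmcc2 and the fall of Nfe2 did not. With bone marrow arrays of the 2 ages alone in the fit 0 genes passed. In that fit only 0.0214% of probe sets were higher and 0.0555% lower, so it called almost nothing in any list. Without replicate 1 of the 6-month epididymal group 15 passed, 14 of them higher, where 3.43% of probe sets were higher and 5.01% lower. Without replicate 2 of the 18-month bone marrow group 3 passed.

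Other gene lists were read at the same ages in bone marrow. Among all probe sets, 5.08% were higher and 3.58% lower at 14 than at 6 months. The shares were 4.75% and 8.23% for 18 against 14 months, and 3.37% and 5.13% for 18 against 6 months. Of 27 proliferation genes, 8 fell at 14 months (median -0.60), and 14 were higher at 18 than at 14 months (median 0.67). Their median deviation was -0.43 to -0.36 on the 14-month arrays and 0.19 to 0.46 on the 18-month arrays. Of 17 B lineage genes, 13 rose at 14 months (median 1.13), and 16 were lower at 18 than at 14 months (-1.05). Of 13 megakaryocyte genes 1 fell at 14 months (-0.67), and on the 14-month arrays their median deviation ran between -0.97 and 0.20, a wider spread than that of the erythroid genes. Of 17 macrophage genes 5 rose at 14 months (0.56), and their median deviation was -0.39 to -0.20 on the 6-month arrays, 0.12 to 0.51 on the 14-month arrays and -0.27 to 0.20 on the 18-month arrays. Of 17 neutrophil genes 2 fell between 18 and 6 months (-0.49), and their median deviation was 0.18 to 0.36 on the 6-month arrays, -0.0049 to 0.011 on the 14-month arrays and -0.22 to -0.13 on the 18-month arrays. Of 18 mature adipocyte genes 1 rose and 1 fell at 14 months (-0.22), and 1 rose and 5 fell between 18 and 6 months (-0.31), with a median deviation of -0.28 to -0.11 on the 18-month arrays. The part of these lists in the age differences of the erythroid genes was not tested.

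**Figure D4:**
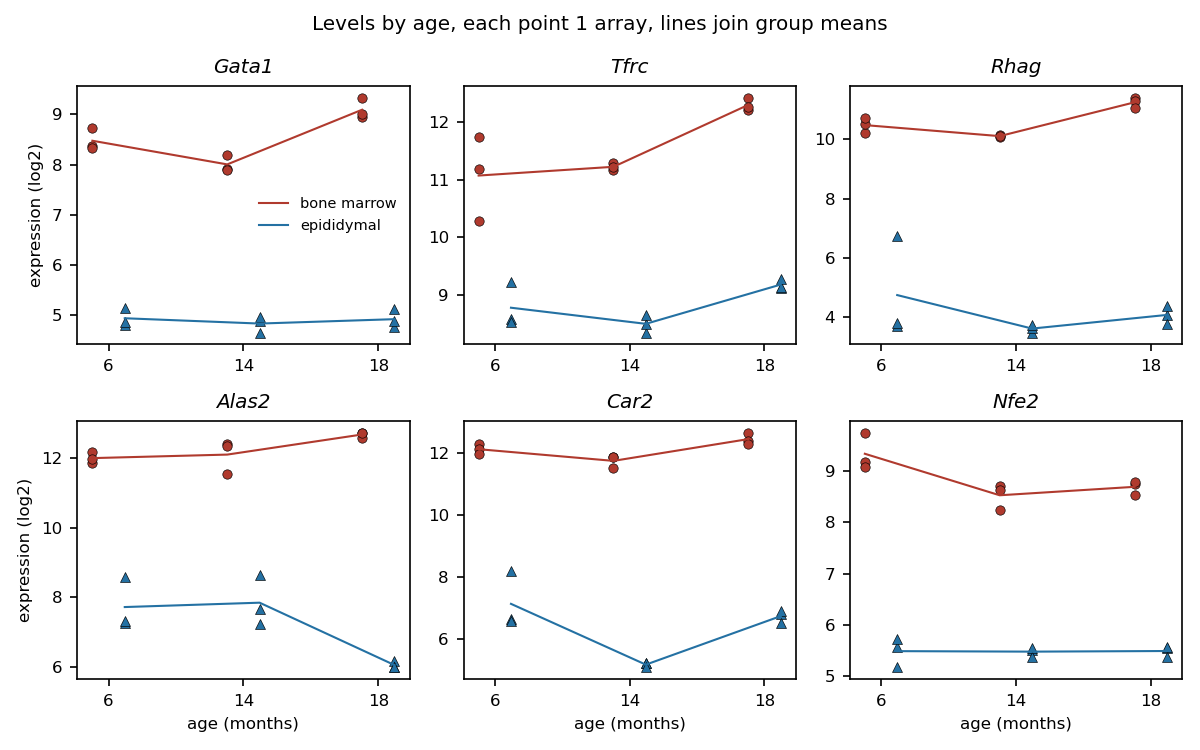
Level (log2, vertical axis) by age in months (horizontal axis) for 6 of the genes; red circles are bone marrow arrays, blue triangles epididymal arrays, and lines join group means. Gata1 and Rhag in bone marrow are lowest at 14 and highest at 18 months, Alas2 falls to between 6.00 and 6.19 in epididymal adipocytes at 18 months, and Car2 in epididymal adipocytes is lowest at 14 months.

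Age calls numbered 8, 9 and 20 in bone marrow adipocytes and 10, 8 and 8 in epididymal adipocytes, for 14 against 6, 18 against 6 and 18 against 14 months in turn. Among all probe sets, 5.08%, 3.37% and 4.75% were higher and 3.58%, 5.13% and 8.23% lower in bone marrow. In epididymal adipocytes 10.2%, 8.22% and 11.7% were higher and 7.51%, 8.01% and 12.5% lower. For 14 against 6 and 18 against 6 months like counts in the depots thus stand against unlike shares. For 18 against 14 months the bone marrow count was the larger, although fewer of all probe sets were called there. Between 14 and 6 months 10 genes fell in epididymal adipocytes and 0 rose, against 7.51% and 10.2% of probe sets, but the array that stood apart lies in the 6-month group. Car2 was 5.20, 5.20 and 5.07 at 14 months, against 8.17, 6.62 and 6.57 at 6 months, a difference of -1.96 ± 0.28 (adjusted p = 5.41e-05). All 3 of its 14-month arrays lay below those of 6 months, and without the array that stood apart the difference was -1.44 and still passed. Cldn13 (-1.89 ± 0.41), Ermap (-1.10 ± 0.22), Hemgn (-0.84 ± 0.19) and Add2 (-0.60 ± 0.14) also fell with and without that array, and their differences without it were -1.15, -0.75, -0.56 and -0.68. Slc4a1 (-1.44 ± 0.48), Rhd (-1.28 ± 0.41), Epb42 (-0.93 ± 0.29), Car1 (-0.82 ± 0.26) and Uros (-0.55 ± 0.16) did not pass without replicate 1 of the 6-month epididymal group. Their differences were then -0.48, -0.48, -0.40, -0.55 and -0.43. So 5 falls were left of 10, where 6.55% of probe sets were lower.

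Alas2 fell late in epididymal adipocytes. It was 6.19, 6.00 and 6.00 at 18 months, below each of the 6 arrays of 6 and 14 months, which lay between 7.24 and 8.64. The difference was -1.66 ± 0.33 against 6 months (adjusted p = 0.00177) and -1.79 ± 0.33 against 14 months (adjusted p = 0.000411), and without the array that stood apart the difference from 6 months was -1.24 and passed. Slc25a37, the mitochondrial iron carrier, followed, at 5.76, 5.63 and 5.86 at 18 months, against 6.72, 6.69 and 6.24 at 14 months and 7.11, 6.39 and 6.31 at 6 months. It was lower by 0.80 ± 0.21 than at 14 months and by 0.86 ± 0.21 than at 6 months, where the difference from 6 months did not pass without that array (-0.60). Fech, at the other end of the pathway, rose. It was 8.09, 7.79 and 7.59 at 18 months, against 6.92, 7.17 and 6.92 at 14 months and 7.47, 7.22 and 6.96 at 6 months, higher by 0.82 ± 0.20 than at 14 months and by 0.61 ± 0.20 than at 6 months.

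In all, 2 genes rose (Fech and Slc25a38, 0.48 ± 0.14) and 6 fell between 18 and 6 months in epididymal adipocytes, against 8.22% and 8.01% of probe sets, with Epb42, Ermap, Add2 and Hemgn beside Alas2 and Slc25a37. Without the array that stood apart, 3 rose (Urod joined them) and 3 fell (Alas2, Add2 and Hemgn), against 8.79% and 8.28% of probe sets, while 14 passed without replicate 1 of the 6-month bone marrow group. The difference of Epb42 was -0.96 with that epididymal array and -0.43 without it, and that of Ermap -0.69 and -0.34. Between 18 and 14 months 5 rose and 3 fell, against 11.7% and 12.5% of probe sets. The genes were thus called about as often as probe sets at large. Car2 (1.57 ± 0.28), Car1 (0.84 ± 0.26), Fech, Urod (0.67 ± 0.16) and Uros (0.54 ± 0.16) were higher at 18 months, and Alas2, Slc25a37 and Epor (-0.50 ± 0.17) lower. All 8 of these passed without that array. Macrophage genes moved widely over the same ages in this depot, with 14 of 17 higher at 14 than at 6 months (median 2.14) and 15 lower at 18 than at 14 months (-3.27). Among all probe sets, 10.2% were higher and 7.51% lower at 14 than at 6 months, and 11.7% and 12.5% at 18 than at 14 months. Their median level was 7.47 to 7.66 at 6 months, 9.03 to 9.76 at 14 months and 5.79 to 6.11 at 18 months. Of 17 neutrophil genes 7 were higher and 1 lower at 18 than at 14 months (median 1.06), and their median level was 8.38, 5.57 and 5.24 at 6 months, 5.20 to 5.41 at 14 months and 6.19 to 6.34 at 18 months. Of 17 B lineage genes 9 were higher at 14 than at 6 months (0.68) and 8 lower at 18 than at 14 months (-0.52). Of 18 mature adipocyte genes 3 were lower at 14 than at 6 months (-0.26), and 4 were higher and 1 lower at 18 than at 14 months (0.34). The part of these lists in the changes of the erythroid genes was not tested.

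Whether the age change differed between depots was tested by the difference of the 2 changes, bone marrow minus epididymal. For 18 against 6 months 10 of the 37 genes had a more positive change in bone marrow and 0 a more negative one, against 3.49% and 5.02% of probe sets, and the median was 0.69, against 0.01 over all tested. Alas2 stood first at 2.34 ± 0.46 (adjusted p = 0.00422), followed by Cldn13 (2.06 ± 0.59), Bpgm (1.65 ± 0.50), Epb42 (1.59 ± 0.41), Trim10 (1.44 ± 0.38), Hemgn (1.40 ± 0.26), Ermap (1.37 ± 0.31), Cpox (1.16 ± 0.33), Tmcc2 (1.10 ± 0.24) and Add2 (0.91 ± 0.19). Without replicate 1 of the 6-month epididymal group 9 genes passed, 8 of them among these 10, with Bpgm and Cpox lost and Slc4a1 gained. In that fit 3.29% of probe sets were more positive and 5.53% more negative. Without replicate 1 of the 6-month bone marrow group 11 passed, 7 of them among these 10, with Cldn13, Bpgm and Cpox lost. Without both arrays 11 passed, 8 of them among these 10, where 4.18% of probe sets were more positive and 6.65% more negative. The values of Alas2, Cldn13, Epb42, Trim10 and Ermap were 1.91, 1.33, 1.06, 1.02 and 1.02 without the epididymal array and 2.00, 0.93, 0.97, 0.82 and 0.84 without both. The count was 18 without replicate 3 of the 6-month bone marrow group and 5 without replicate 1 of the 18-month epididymal group. The epididymal medians of Cldn13 (4.93), Trim10 (4.76), Hemgn (4.84), Epb42 (4.85) and Add2 (5.03) lay below every array median (5.33 to 5.65). Those of Alas2, Bpgm, Ermap, Cpox and Tmcc2 lay above. For 14 against 6 months 3 genes passed, Car2 higher (1.59 ± 0.40) and Blvrb (-1.32 ± 0.33) and Nfe2 (-0.80 ± 0.24) lower, against 5.07% and 6.53% of probe sets, so that the genes were called no more often than probe sets at large. Nfe2 did not pass without replicate 1 of the 6-month bone marrow group (-0.59).

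The other genes of these pathways were followed as lists, with 65 of 79 named genes found on the array. Of 13 other red cell membrane genes, 9 were higher in bone marrow over the ages and 0 lower, against 10.2% and 11.6% of all probe sets. The widest differences were those of Slc14a1, the urea transporter of red cells (4.55 ± 0.14), Tmod1, the tropomodulin that caps short actin filaments (3.33 ± 0.12), Xk, the partner of Kell (2.82 ± 0.11), and Art4, the Dombrock protein of human blood groups (2.21 ± 0.09). In bone marrow 6 of the 13 fell between 14 and 6 months (3.58% of probe sets), and 12 were higher at 18 than at 14 months (4.75%). Of 25 other erythroid regulators and maturation genes, 17 were higher in bone marrow and 1 lower, led by Myb, a factor of hematopoietic progenitors (4.15 ± 0.11), E2f2, a cell cycle factor (3.28 ± 0.09), Ube2o, a ubiquitin ligase of late erythroid cells (3.07 ± 0.13), and Xpo7, an export receptor (2.96 ± 0.10). Myb and E2f2 had no age call in bone marrow, with differences of -0.48 and 0.29 between 18 and 14 months.

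Of 24 other heme and iron genes, 2 were higher in bone marrow and 5 lower, against 10.2% and 11.6% of probe sets. Their median was -0.02, the value of all tested probe sets. Slc40a1, the iron exporter ferroportin (3.25 ± 0.15), and Abcb10, a mitochondrial transporter that stabilizes mitoferrin (2.15 ± 0.11), were higher. Aco1, the iron regulatory protein that also acts as cytosolic aconitase (-3.03 ± 0.08), and Clpx, a mitochondrial unfoldase that acts on aminolevulinate synthase (-1.73 ± 0.09), were lower. In bone marrow 10 of the 24 rose between 18 and 6 months and 1 fell, against 3.37% and 5.13% of probe sets. On replicate 1 of the 6-month bone marrow group 17 of the 24 lay below both other arrays, as did 7734 of all 23410 tested probe sets. The median deviation of the list was -0.33, -0.08 and 0.02 on the 6-month arrays. The count without that replicate 1 is not given here. Of the globins 3 embryonic genes could be read, Hba-x, Hbb-bh1 and Hbb-y, and none passed between depots, the largest difference being 0.21 ± 0.08 for Hbb-y. The adult globins were not analysed here.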

How the data were processed

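RNA of 3 pools per group was hybridized to whole-transcript arrays. The deposited values are log2 expression values. By the study's methods the authors made gcRMA values in Partek Genome Suite, then quantile normalized and log2 transformed them. The submitters' processing notes name RMA as well, and array medians of the deposited values still differed. Of 35556 probe sets, 23410 name a gene and were tested. The columns were all matched to a sample by their labels. limma 3.58.1 in R 4.3.3 fitted 6 group means to all 18 arrays, with a constant prior and Benjamini-Hochberg adjustment over the 23410 probe sets. Calls needed an adjusted p under 0.05, and between depots a 2-fold difference as well, the limit of the study's methods. All 37 genes count as named genes, and each further list names up to 4 genes with the largest absolute difference between depots over the ages. The genes and the lists were chosen with earlier results of these data known. Array number, not a count of reads, limits the precision. The fit was tested on simulated data: between depots 100% of genes shifted by 1 or 2 log2 units were recovered, and for 14 against 6 months in bone marrow 93% of genes shifted by 1 and 99% of those shifted by 2. The simulated noise was independent, with the same spread in every group, and held no arrays that stood apart. In the deposited values the median SD ran between 0.097 (18-month epididymal) and 0.22 (6-month bone marrow), so recovery there may be lower. Same-numbered arrays of the depots did not deviate together (correlations -0.14 to 0.15, against -0.16 to 0.15 for different numbers), so the numbers were not used as pairs. Alternatives were another scaling (quantile, median, or 55 ribosomal protein genes), other probe sets, other forms of the test, array weights, a replicate block and each array left out in turn, and, chosen after seeing the data, both 6-month replicates 1 left out together. Promoters were searched and figures drawn with Python 3.11.15 and matplotlib 3.10.9.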

Additional observations from a re-analysis of the deposited data

Results flagged for a closer look

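For 13 results a test of the difference itself showed that the change with age was not the same in both depots. The values are the bone marrow change minus the epididymal change on the log2 scale (limma, adjusted p under 0.05). Against 6 months, the 14-month change was more positive in bone marrow for Car2 (1.59) and more negative for Blvrb (-1.32) and Nfe2 (-0.80), where 5.07% of all probe sets were more positive and 6.53% more negative. At 14 months the genes were thus called no more often than probe sets at large. The 18-month change was more positive in bone marrow for Alas2 (2.34), Cldn13 (2.06), Bpgm (1.65), Epb42 (1.59), Trim10 (1.44), Hemgn (1.40), Ermap (1.37), Cpox (1.16), Tmcc2 (1.10) and Add2 (0.91), where 3.49% and 5.02% of probe sets were called. Of these, Bpgm and Cpox did not pass without replicate 1 of the 6-month epididymal group. On that array 10 of the 37 genes lay more than 1 log2 unit above the mean of the others, against 0.632% of all tested probe sets. Without replicate 1 of the 6-month bone marrow group Cldn13, Bpgm and Cpox did not pass at 18 months, nor did Nfe2 at 14 months. The epididymal medians of Cldn13, Trim10, Hemgn, Epb42 and Add2 lay below every array median, and those of the other genes called at 18 months above.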

How the results depend on the processing

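The difference between depots was stable in number over the ages, with 36 to 37 genes called when single arrays were left out (35 to 36 at 6, 36 at 14 and 37 at 18 months). No called gene changed direction under any alternative. Age counts were less stable. Left-out arrays gave 4 to 11 genes for 14 against 6 months in bone marrow (4 without replicate 1 of 6 months, 5 without replicate 3 of 14 months), 3 to 15 for 18 against 6 (4 without replicate 1 of 6 months, 3 and 5 without replicates 2 and 3 of 18 months, 15 without epididymal 6-month replicate 1) and 17 to 28 for 18 against 14. In epididymal adipocytes they gave 5 to 13 for 14 against 6 (5 without replicate 1 of 6 months, 6 without replicate 1 or 3 of 14 months), 3 to 14 for 18 against 6 (3 and 5 without replicates 1 and 2 of 18 months, 14 without bone marrow 6-month replicate 1) and 6 to 11 for 18 against 14. The difference of the age changes gave 2 to 5 at 14 months (5 when either replicate 3 of 6-month marrow or replicate 1 of the 6-month epididymal group was dropped) and 5 to 18 at 18 months (18 without bone marrow 6-month replicate 3, 5 and 6 without epididymal 18-month replicates 1 and 2, 6 without bone marrow 18-month replicate 2).

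For 14 against 6 months in bone marrow the 8 genes became 1 with ribosomal protein genes set equal, 5 with ordinary analysis of variance, 3 with array weights and 0 with the compared groups alone, but 10 with quantile scaling and 12 without both 6-month replicates 1. For 18 against 6 months the 9 became 4 with ordinary analysis of variance, 3 with array weights and 0 with the compared groups alone. For 18 against 14 months the 20 became 32 with the compared groups alone and 32 without both 6-month replicates 1. The share of probe sets called changed with these settings too. With the compared groups alone it was 0.982% higher and 0.175% lower for 14 against 6 months. It was 0.0214% and 0.0555% for 18 against 6, and 6.31% and 10.1% for 18 against 14 months. Without both 6-month replicates 1 it was 7.15% and 11.1% for 18 against 14 months. For 14 against 6 months in epididymal adipocytes the 10 became 23 with ribosomal protein genes set equal, which shifted the all-probe-set median by -0.36, and 6 with all probe sets or with ordinary analysis of variance. For 18 against 6 months the 8 became 5 with quantile scaling, with all probe sets or with ordinary analysis of variance, and 17 with array weights. The difference of the age changes gave 6 (ribosomal scaling) or 1 (ordinary analysis) in place of 3 at 14 months, and 5 (ordinary analysis) or 6 (compared groups alone) in place of 10 at 18 months. The main fit takes 1 error per probe set from all 18 arrays, so an array outside a comparison can alter its calls. The cause of each change was not tested. Scaling also moved the split of directions. The 5 higher and 3 lower genes of 18 against 14 months in epididymal adipocytes became 8 and 1 with quantile or ribosomal scaling and 8 and 2 with median centring, and the 2 higher and 6 lower genes of 18 against 6 months became 0 and 8 with ribosomal scaling and 3 and 4 with median centring. The 1 higher and 2 lower differences at 14 months became 6 and 0 with ribosomal scaling and 2 and 1 with median centring.

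With the replicate number as a block the counts were 36 between depots, 9 for 14 against 6, 9 for 18 against 6 and 19 for 18 against 14 months in bone marrow, 9, 7 and 7 for the same ages in epididymal adipocytes, and 2 and 10 for the difference of the age changes. A choice of another probe set could not be run, since each gene has a single one. With 3 pools a group, a gene that missed the threshold is not shown to be alike between groups.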
